A study of Mus musculus with 6 samples.

Results

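Phospholipase C enzymes cleave the membrane lipid phosphatidylinositol 4,5-bisphosphate (PIP2) into inositol trisphosphate, which opens calcium channels of the endoplasmic reticulum, and diacylglycerol, which recruits protein kinase C and Ras activators. In macrophages the beta enzymes act below G protein coupled receptors for complement fragments, nucleotides and chemokines, and the gamma enzymes act below tyrosine kinases of Fc and other immune receptors. The 10 genes described here are Plcb1, Plcb2, Plcb3, Plcb4, Plcg1, Plcg2, Plcd1, Plcd3, Plcl2 and Plce1, out of 46078 gene rows of the deposited count table. Plcb4 was picked by its rise in these same libraries, so its values are a description without a test, and the other 9 were chosen by family and were tested.

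Polyadenylated RNA of alveolar macrophages, which reside in the airspaces of the lung, had been sequenced after sorting from untreated mice, with 1 library per mouse. The Car4fl/fl-CD11cCre group (3 mice) carried loxP-flanked alleles of Car4, the gene of carbonic anhydrase 4, together with a Cre recombinase driven by CD11c, an integrin chain that dendritic cells also express. The Car4fl/fl group (3 mice), called control here, carried the flanked alleles without Cre. The sources used here give no age, sex or strain, and do not name the flanked exons. No group had Cre with unflanked Car4, so effects of the transgene and of Car4 deletion cannot be told apart. The sources used here do not give where the transgene is inserted in the genome. Libraries held between 53824475 and 65443314 gene counts.

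The deletion was visible in Car4 itself, which was at 40.2, 46.9 and 36.3 CPM in the Cre libraries against 499, 385 and 270 CPM in the controls, or 10.7% of the control mean. CPM are counts scaled to the size of the library, adjusted by TMM factors. All 15 alveolar macrophage markers, among them Siglecf, Marco, Pparg and Chil3, were above 1 CPM in every library of both groups. Their levels were not all alike in the groups. Siglecf was lower without overlap, at 547 ± 71.7 CPM in Cre and 708 ± 44.5 CPM in control macrophages (SD, n = 3 each). Marco was higher without overlap, at 455 ± 57.0 CPM in Cre and 296 ± 15.5 CPM in control macrophages. So was Chil3, whereas Pparg overlapped. Cre library 1 stood apart from the other two Cre libraries: on the first principal component it lay at -0.546, against -31.7 and -29.5 for Cre libraries 2 and 3 and 17.0 to 22.4 for the controls. Summed markers of interstitial and monocyte-derived macrophages were at 477, 728 and 950 CPM in Cre libraries 1, 2 and 3 and at 466 to 474 CPM in the controls, with none of the 12 markers at 0. Cd14 and Apoe made up most of these sums, and Apoe alone was at 97.4, 250.3 and 505 CPM in the Cre libraries and 87.4 to 106 CPM in the controls. Within the list the complement genes C1qa, C1qb and C1qc, with Ms4a7, had all Cre values above all control values, whereas the scavenger receptor gene Cd163 was lower (0.307 ± 0.111 CPM in Cre, 0.887 ± 0.356 CPM in control macrophages) and Folr2 and Lyve1 overlapped. In sorted bulk samples, fewer expressing cells and less RNA per cell cannot be told apart.

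Plcb4 encodes phospholipase C beta 4, an isoform best known from neurons of the retina and cerebellum, where it acts below receptors coupled to the G protein Gq. It had 1630, 1752 and 1558 counts in the Cre libraries, against 33, 32 and 31 counts in the controls. These correspond to 27.6, 27.1 and 28.9 CPM in the Cre libraries and 0.548, 0.532 and 0.546 CPM in the controls. All 3 Cre libraries were high by nearly the same amount and all 3 controls were low, with a wide gap between the groups. The means were 27.9 ± 0.940 CPM in Cre macrophages and 0.542 ± 0.00854 CPM in control macrophages (SD, n = 3 each). This was a 51.5-fold difference, or a log2 fold change of 5.68. No standard error is given for it, since Plcb4 was picked for its rise. Control counts were low but above the floor of 3 counts, which corresponds to 0.0465 to 0.0557 CPM in these libraries.

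The spread of Plcb4 was small within each group, with a coefficient of variation of 3.37% over the Cre libraries and 1.58% over the controls. Cre library 1, which lay closer to the controls than Cre libraries 2 and 3 on the first principal component, had as much Plcb4 as the others. Plcb4 did not follow the summed interstitial macrophage markers, which ranged from 477 to 950 CPM over the same 3 libraries. Without Cre library 1 the log2 fold change of Plcb4 was 5.68. Of 8 neuron and glia markers, 7 were below 1 CPM on average in both groups, and the sum of 109 to 119 CPM in Cre libraries and 110.2 to 121 CPM in controls was nearly all Mbp, a myelin gene. Among the neuronal ones Snap25 had a mean of 0.0114 CPM in Cre libraries and 0.0117 CPM in controls, and Syt1 had 0.0515 CPM in Cre libraries and 0.0176 CPM in controls.

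Plcb4 (ENSMUSG00000039943) lies on the plus strand of mouse chromosome 2 in GRCm38, from 135659011 to 136014593, with 45 merged exon blocks and 15 annotated transcripts. RefSeq (GRCm38.p6) gives 2 start windows, running from 250 bases before to 50 bases after each start, at chr2:135659297-135659596 and chr2:135764588-135764887. They are shown because the counts are per gene, so that which of these starts the added transcripts used was not measured. Capitals mark the GC box motif GGGCGG or its reverse complement, overlapping matches included, and the Plcb1 window at chr2:134785914-134786213 is printed for comparison, since this neighbouring beta gene had lower values in the same libraries.
Plcb4 start 1: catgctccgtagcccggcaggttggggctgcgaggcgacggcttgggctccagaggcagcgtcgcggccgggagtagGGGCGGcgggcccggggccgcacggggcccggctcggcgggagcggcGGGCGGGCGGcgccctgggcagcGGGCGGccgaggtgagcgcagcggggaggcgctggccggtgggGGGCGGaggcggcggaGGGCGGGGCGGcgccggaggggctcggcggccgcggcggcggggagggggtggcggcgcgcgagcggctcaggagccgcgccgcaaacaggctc
Plcb4 start 2: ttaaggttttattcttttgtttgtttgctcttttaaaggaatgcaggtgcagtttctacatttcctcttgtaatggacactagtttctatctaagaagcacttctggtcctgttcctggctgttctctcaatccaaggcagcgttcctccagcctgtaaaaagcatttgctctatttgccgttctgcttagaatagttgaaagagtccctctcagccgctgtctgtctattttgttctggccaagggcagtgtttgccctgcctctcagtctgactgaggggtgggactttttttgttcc
Plcb1 start: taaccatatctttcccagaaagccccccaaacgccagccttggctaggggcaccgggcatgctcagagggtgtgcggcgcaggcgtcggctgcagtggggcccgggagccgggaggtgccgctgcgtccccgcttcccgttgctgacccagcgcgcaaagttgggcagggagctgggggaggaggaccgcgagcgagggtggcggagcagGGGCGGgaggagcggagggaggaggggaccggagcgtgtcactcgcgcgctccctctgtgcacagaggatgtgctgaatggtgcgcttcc

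The first Plcb4 window was rich in CpG, with 50 CpG dinucleotides, 84.0% G and C and 7 GC boxes. The second window, 106 kb into the gene, had 3 CpG dinucleotides, 44.3% G and C and no GC box. The Plcb1 window had 26 CpG dinucleotides and 1 GC box. Among 32851 promoter windows of the same length the median was 7 CpG dinucleotides, and 35.7% held a GC box on either strand. None of the 3 windows held the TATA box letters TATAAA, which 13.6% of all windows did.

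**Figure D1:**
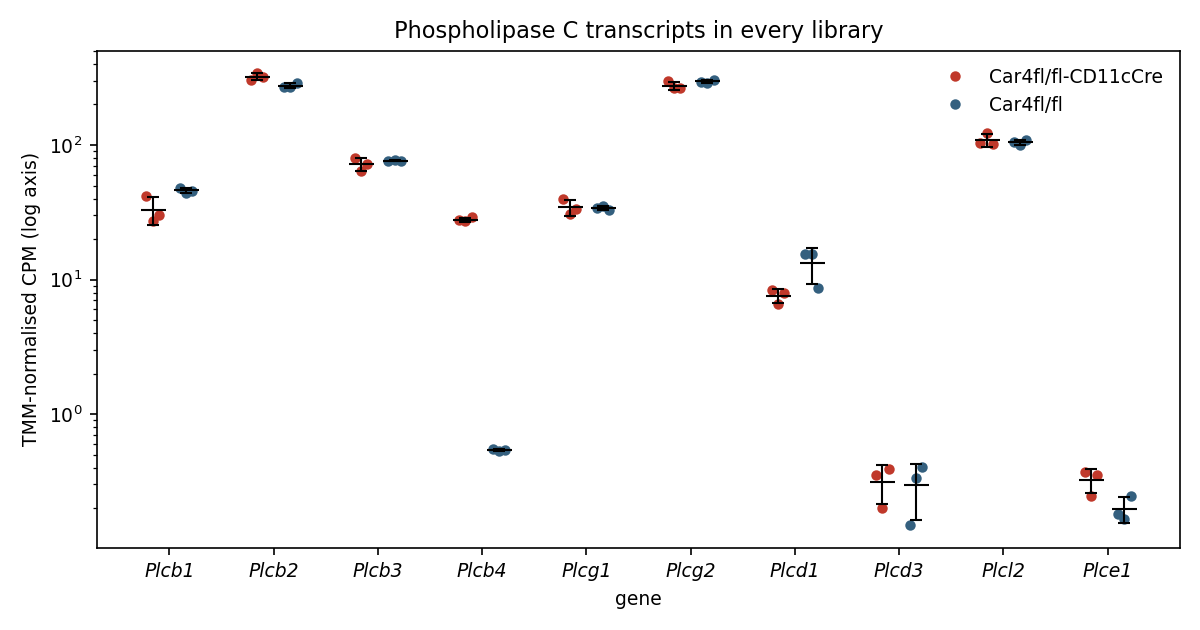
TMM-normalised CPM on a log axis for each of the 10 phospholipase C genes, with 1 point per library (red, Car4fl/fl-CD11cCre; blue, Car4fl/fl) and black bars for the mean and SD of 3 libraries. Plcb4 is at 27.1 to 28.9 CPM in Cre libraries and 0.532 to 0.548 CPM in controls, while the other 9 genes differ by less than 2-fold between group means.

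Among the other 9 members no gene passed an adjusted p of 0.05 in edgeR's quasi-likelihood test with Benjamini-Hochberg adjustment over 15147 tested genes, where 0.0132% of all genes passed in either direction. At an unadjusted p under 0.05, 1 member had a higher and 2 a lower value, against 6.54% of all genes higher and 6.28% lower. DESeq2 called the same number, 1 higher (Plcb2) and 2 lower (Plcb1 and Plcd1), against 2.37% and 1.51% of the genes it gave an adjusted p. All 3 Cre values lay above all 3 control values for 2 members and below them for 2, where 8.63% and 9.22% of all genes did so. The median log2 fold change of the 9 was 0.02, and that of all tested genes was -0.002. All 9 passed the filter on low counts.

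Plcb2, a beta enzyme of blood cells that responds to both Gq and the beta-gamma subunits of Gi, was the member nearest to a call on the higher side. It was at 303, 341 and 320 CPM in the Cre libraries against 268, 270.1 and 288 CPM in the controls. The groups did not overlap, and Cre library 2 was highest. The log2 fold change was 0.22 ± 0.06 (SE), with a 95% interval of 0.08 to 0.37 and an adjusted p of 0.209 in edgeR against 0.0317 in DESeq2.

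Plcb1 encodes a Gq-responsive enzyme and is the neighbour of Plcb4 on chromosome 2. It was at 42.0, 27.3 and 30.0 CPM in Cre libraries 1, 2 and 3, against 48.3, 43.9 and 45.8 CPM in the controls. Cre library 1 lay close to the lowest control, and Cre libraries 2 and 3 were well below. The log2 fold change was -0.48 ± 0.15 (SE) with a 95% interval of -0.82 to -0.14, and the adjusted p was 0.246 in edgeR and 0.0354 in DESeq2. Without Cre library 1 it was -0.69 and passed in edgeR with an adjusted p of 0.00673. An antisense gene, 9630028H03Rik, shares 178 exonic bases with Plcb1 and had at most 3 counts in any Cre library and 6 in any control.

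Plcb3, the more widely expressed beta enzyme that couples to Gq and Gi, was at 80.1, 64.2 and 72.0 CPM in the Cre libraries against 76.4, 77.9 and 75.8 CPM in the controls. The groups overlapped, with Cre library 1 above every control and Cre libraries 2 and 3 below. Its log2 fold change was -0.09 ± 0.08 (SE), with a 95% interval of -0.27 to 0.09 and an adjusted p of 0.717 (edgeR). Together the 4 beta genes summed to 64.2, 66.4 and 64.8 RPKM in the Cre libraries and 56.0, 56.1 and 58.8 RPKM in the controls, RPKM being CPM per kilobase of merged exons. Of the difference between these sums, Plcb2 (48.7 RPKM in Cre, 41.8 RPKM in control) made up more than Plcb4 (3.11 RPKM in Cre, 0.0604 RPKM in control).

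The gamma genes were close to equal in both groups. Plcg2, the blood cell isoform below Syk, Btk and Fc receptors, was at 299, 266 and 263 CPM in the Cre libraries against 296, 290.6 and 306 CPM in the controls. Cre library 1 lay among the controls, so the groups overlapped, and the log2 fold change was -0.11 ± 0.06 (SE; adjusted p 0.545, edgeR). Its 95% interval ran from -0.26 to 0.04. Plcg1, the widely expressed isoform below growth factor and T cell receptors, was at 39.5, 30.6 and 33.3 CPM in the Cre libraries and 34.0, 35.0 and 32.6 CPM in the controls. Those groups overlapped too, the log2 fold change was 0.02 ± 0.09 (SE) and the 95% interval ran from -0.19 to 0.24 (adjusted p 0.947, edgeR). Plcg1 shares 379 exonic bases with Zhx3 on the other strand, and the strand setting of the counting was not stated in these sources.

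Plcd1, the calcium-sensitive delta enzyme, had the most negative log2 fold change of the 9 tested members. It was at 8.33, 6.59 and 7.89 CPM in the Cre libraries against 15.5, 15.5 and 8.59 CPM in the controls. The groups did not overlap, but control library 3 was almost as low as Cre library 1. Its log2 fold change was -0.80 ± 0.22 (SE), with a 95% interval of -1.32 to -0.28 and an adjusted p of 0.206 in edgeR against 0.0101 in DESeq2. Without control library 3 the value was -1.03 and the adjusted p in edgeR was 0.0297. Plcd3, the other delta member, was scarce, with 21, 13 and 21 counts in the Cre libraries and 9, 20 and 23 in the controls, and its interval of -0.94 to 1.12 on the log2 scale allows a change of either sign.

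Plce1, which encodes the epsilon enzyme that small GTPases of the Ras family switch on, had only 22, 16 and 19 counts in the Cre libraries and 11, 10 and 14 in the controls. All Cre values lay above the controls, the closest pair being 0.248 CPM in Cre library 2 and 0.246 CPM in control library 3. The log2 fold change was 0.70 ± 0.34 (SE), the 95% interval ran from -0.09 to 1.49, and the adjusted p was 0.453 (edgeR). Plcl2 encodes a phospholipase C-like protein that lacks the catalytic activity and binds inositol trisphosphate and protein phosphatases. It was at 103, 123 and 102 CPM in the Cre libraries against 104, 100.8 and 109 CPM in the controls, with overlapping groups, a log2 fold change of 0.06 ± 0.08 (SE), an interval of -0.12 to 0.25 and an adjusted p of 0.817 (edgeR).

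**Figure D2:**
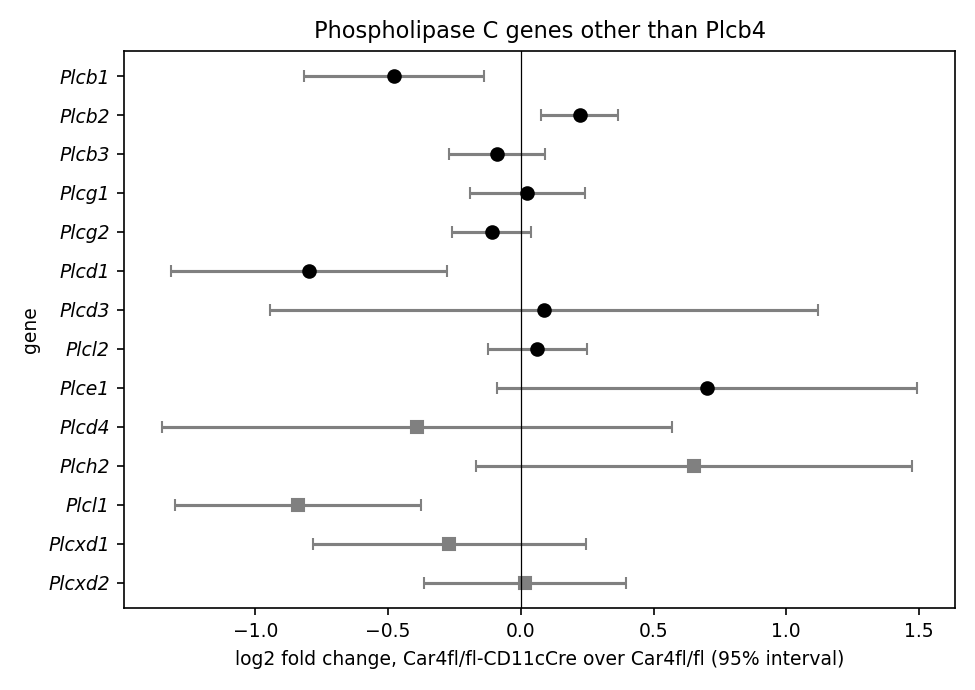
Log2 fold change of Car4fl/fl-CD11cCre over Car4fl/fl with its 95% interval from edgeR, for the 9 members other than Plcb4 (black circles) and the 5 other phospholipase C genes that passed the filter (grey squares). The intervals of Plcb2, Plcb1, Plcd1 and Plcl1 do not include 0, although none of these genes passed after adjustment over all genes. Plcb4, at 5.68, is left out of the plot.

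Compared per length, Plcg2 and Plcb2 were the most abundant phospholipase C transcripts in every library. In the Cre libraries the order ran from Plcg2 (64.2 ± 4.58 RPKM, SD, n = 3) through Plcb2 (48.7 ± 2.90), Plcl2 (16.5 ± 1.82), Plcb3 (10.4 ± 1.14) and Plcg1 (4.39 ± 0.583 RPKM) to Plcb4 (3.11 ± 0.105), Plcb1 (2.98 ± 0.704) and Plcd1 (2.46 ± 0.294 RPKM). Plcd3 and Plce1 closed the order at 0.0930 and 0.0203 RPKM. Plcb4 and Plcb1 could not be ordered beyond their spread in the Cre group, since Plcb1 was the higher of the pair in Cre library 1 and the lower in Cre libraries 2 and 3.

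In the controls the first 4 places were the same, from Plcg2 at 69.3 ± 1.87 RPKM to Plcb3 at 11.0 ± 0.154 RPKM. Plcg1 (4.31 ± 0.155), Plcd1 (4.27 ± 1.29) and Plcb1 (4.14 ± 0.197 RPKM) followed and did not differ beyond their spread. Plcb4 came after Plcd3, at 0.0604 ± 0.000953 against 0.0871 ± 0.0388 RPKM (SD, n = 3), but the pair could not be ordered beyond their spread, since Plcb4 was the higher in control library 1. Plce1 was the lowest, at 0.0124 RPKM. Plcb4 thus made up 2.03% of the summed RPKM of the 10 genes in Cre macrophages and 0.0401% in controls. The ratio of Plcb4 to Plcb1 in CPM was 0.656, 0.996 and 0.965 in the Cre libraries and 0.0113 to 0.0121 in the controls.

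The sums over all 10 genes differed by less than their spread, at 153 ± 4.33 RPKM in Cre macrophages and 151 ± 2.56 RPKM in controls (SD, n = 3 each). Without Plcb4 the sums were 149.7 ± 4.41 RPKM in Cre macrophages and 150.7 ± 2.56 RPKM in controls. With the length of the longest transcript in place of merged exons, Plcb4 was at 5.34 RPKM and Plcb1 at 4.59 RPKM in the Cre libraries. On that length Plcg2 was at 64.2 RPKM and Plcb2 at 62.4 RPKM in the Cre libraries, and at 69.3 and 53.5 RPKM in the controls. The levels thus depend on the length used, and on this length Plcg2 and Plcb2 could not be ordered beyond their spread in the Cre group.

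**Figure D3:**
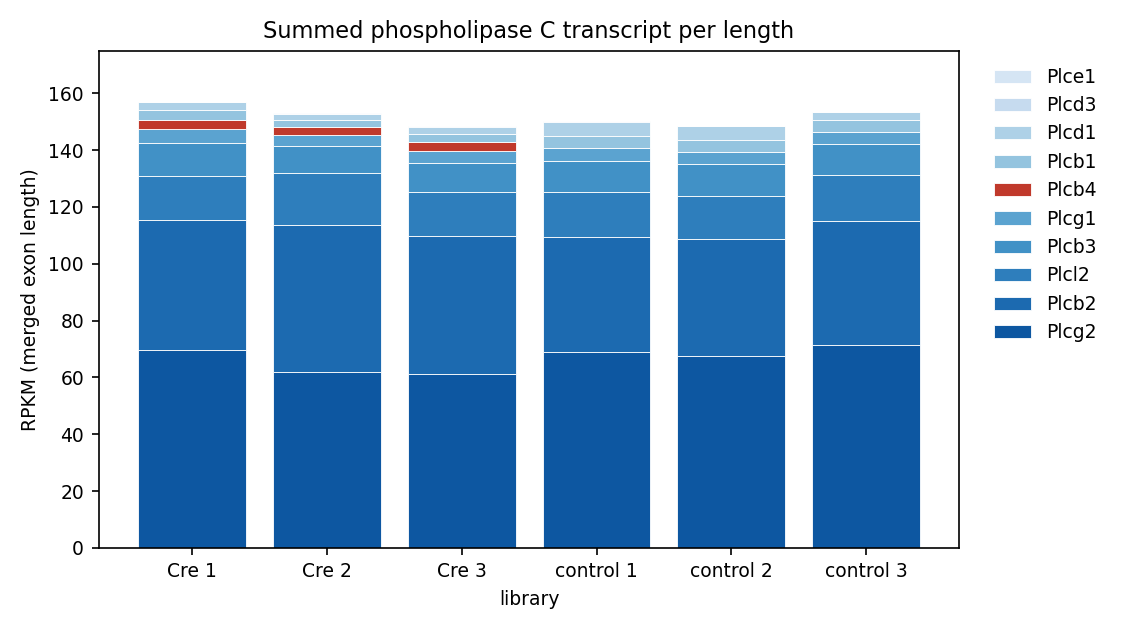
Stacked bars of RPKM (merged exon length) of the 10 phospholipase C genes in each library, Cre libraries on the left and controls on the right, most abundant gene at the base. The totals lie between 148 and 157 RPKM, and the red Plcb4 layer of 3.03 to 3.23 RPKM is seen in the Cre libraries, since the control layer of 0.0593 to 0.0611 RPKM is too thin to show.

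Of 8 further phospholipase C genes, 5 passed the filter, and none passed the adjusted threshold in edgeR. Plcl1, the inactive relative of Plcl2, was at 3.04, 2.29 and 2.92 CPM in the Cre libraries against 5.78, 5.25 and 3.71 CPM in the controls. The groups did not overlap, control library 3 again lay nearest to the Cre libraries, and the log2 fold change was -0.84 ± 0.20 (SE; adjusted p 0.170 in edgeR, 0.00786 in DESeq2). Plcxd2, which encodes a protein with only the X part of the catalytic domain, averaged 3.54 ± 0.432 CPM in Cre macrophages and 3.50 ± 0.505 CPM in controls (SD, n = 3 each), and the direction of its log2 fold change of 0.01 changed with the libraries used. Plcxd1, Plcd4 and Plch2 were below 1 CPM in every library, with adjusted p between 0.507 and 0.770 (edgeR). Plch1 and Plcxd3 had at most 2 counts in any library, and the sperm enzyme gene Plcz1 had none.

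Genes of the surrounding pathway were read from 9 lists with 218 genes, these 8 included, of which 193 were tested, and edgeR called 0 of them at an adjusted p of 0.05. An unadjusted p below 0.05 was reached by 30 genes with higher and 24 with lower values, or 15.5% and 12.4% of those tested, against 6.54% and 6.28% of all genes. DESeq2 called 12 higher and 7 lower, or 6.22% and 3.63% of the 193, against 2.37% and 1.51% of all genes. The lists were chosen with earlier results of these data known.

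Among receptors that feed the beta enzymes, 6 of 24 tested genes had higher and 0 had lower values with an unadjusted p under 0.05. Over all tested genes these shares were 6.54% and 6.28%. DESeq2 called 1 receptor gene higher and 0 lower, against 2.37% and 1.51% of all genes. The median log2 fold change was 0.34, against -0.002 over all tested genes. P2ry1, a Gq-coupled ADP receptor, was at 0.355, 1.07 and 1.71 CPM in the Cre libraries and at 0, 0.0166 and 0.0880 CPM in the controls (adjusted p 0.146, edgeR). C3ar1, the receptor of the complement fragment C3a, was at 1.30, 5.50 and 11.6 CPM in the Cre libraries against 1.26, 1.08 and 0.986 CPM in the controls (adjusted p 0.193, edgeR). In DESeq2 the adjusted p was 1.10e-05 for P2ry1 and 0.0572 for C3ar1. For both genes Cre library 1 was the lowest Cre library, the order in which the interstitial macrophage markers stood, and the part of such cells in these values was not tested. Fpr1, the formyl peptide receptor and the most abundant gene of the list per length, averaged 310 ± 19.5 CPM in Cre and 290 ± 25.2 CPM in control macrophages.

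G proteins and their RGS regulators, which speed up GTP hydrolysis by G alpha subunits, went both ways. With an unadjusted p below 0.05, 3 of 22 had higher and 5 lower values, against 6.54% and 6.28% of all genes. DESeq2 called 2 higher and 1 lower, against 2.37% and 1.51% of all genes. Gng12, a gamma subunit gene, was at 31.9, 61.6 and 37.5 CPM in the Cre libraries against 19.9, 19.1 and 20.3 CPM in the controls, and Rgs1 was at 72.4, 87.1 and 114.8 CPM in the Cre libraries against 57.3, 55.6 and 66.1 CPM in the controls. The groups did not overlap for either gene. Their adjusted p were 0.146 and 0.185 in edgeR, and 0.00714 and 0.00230 in DESeq2. Gnai2, the abundant alpha subunit of Gi, was at 993 ± 50.2 CPM in Cre macrophages and 1089 ± 39.4 CPM in controls.

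On the tyrosine kinase route to the gamma enzymes, 4 of 30 genes had higher and 4 lower values with an unadjusted p below 0.05. The shares over all genes were 6.54% and 6.28%. Of this list DESeq2 called 1 gene higher and 0 lower, against 2.37% and 1.51% of all genes. Blnk, an adaptor that brings PLC gamma 2 to Syk, was at 1.01, 5.36 and 6.52 CPM in the Cre libraries and at 0.415, 0.399 and 0.387 CPM in the controls (adjusted p 0.146, edgeR). Trem2, a lipid-sensing receptor that signals through Tyrobp, averaged 77.1 ± 24.0 CPM in Cre macrophages and 51.6 ± 4.40 CPM in controls, with overlapping values (adjusted p 0.294, edgeR). In DESeq2 the adjusted p was 4.52e-08 for Blnk and 0.296 for Trem2. Tyrobp itself averaged 649 ± 48.7 CPM in Cre and 671 ± 46.6 CPM in control macrophages.

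Of the genes that supply PIP2, 4 of 17 had higher and 3 had lower values with an unadjusted p below 0.05. The shares over all genes were 6.54% and 6.28%. Of these 17, DESeq2 called 3 higher and 0 lower, against 2.37% and 1.51% of all genes. Cds2, which makes the CDP-diacylglycerol for phosphatidylinositol synthesis, was at 203, 212 and 204 CPM in the Cre libraries against 173, 180.0 and 184 CPM in the controls (adjusted p 0.176 in edgeR, 0.0124 in DESeq2). Pitpnm2, a lipid transfer protein gene, averaged 3.71 ± 0.543 CPM in Cre and 1.76 ± 0.701 CPM in control macrophages. Its groups did not overlap (adjusted p 0.187 in edgeR, 0.00952 in DESeq2). The transfer protein gene Pitpna averaged 670 ± 20.3 CPM in Cre and 756 ± 26.6 CPM in control macrophages. Enzymes that compete for PIP2 or act on its product PIP3 had 3 of 20 genes with higher and 1 with lower values at an unadjusted p below 0.05. DESeq2 called 0 of these 20. Pik3cb, a catalytic PI 3-kinase subunit gene, had a log2 fold change of 0.15 ± 0.05 (SE), and the regulatory subunit genes Pik3r6 and Pik3r5 had -0.17 ± 0.06 and 0.09 ± 0.06 (SE), with adjusted p of 0.273, 0.264 and 0.573 (edgeR).

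Downstream of inositol trisphosphate, 2 of 26 genes had higher and 3 had lower values with an unadjusted p below 0.05. The shares over all genes were 6.54% and 6.28%. Of these 26, DESeq2 called 1 higher and 2 lower, against 2.37% and 1.51% of all genes. Itpr3, one of the inositol trisphosphate receptor genes, was at 6.53, 7.14 and 5.54 CPM in the Cre libraries against 2.89, 4.31 and 4.15 CPM in the controls (adjusted p 0.170 in edgeR, 0.00569 in DESeq2). Ryr1, a calcium release channel gene, was at 6.25, 7.27 and 7.28 CPM in the Cre libraries against 11.4, 11.1 and 8.45 CPM in the controls (adjusted p 0.170 in edgeR, 0.00911 in DESeq2). The groups did not overlap for either gene.

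Among effectors and enzymes of diacylglycerol 6 of 24 genes had higher and 3 had lower values with an unadjusted p below 0.05. The shares over all genes were 6.54% and 6.28%. Of these 24, DESeq2 called 3 higher and 2 lower, against 2.37% and 1.51% of all genes. The Ras activator gene Rasgrp1 was at 1.42, 3.07 and 2.34 CPM in the Cre libraries against 0.979, 0.781 and 0.510 CPM in the controls. Its relative Rasgrp4 differed in the other direction, at 33.4, 18.4 and 28.5 CPM in the Cre libraries and 54.9, 56.0 and 40.3 CPM in the controls. Their adjusted p were 0.159 and 0.167 (edgeR), and neither gene's groups overlapped. Prkcd, the protein kinase C delta gene, averaged 475 ± 108 CPM in Cre and 351 ± 59.5 CPM in control macrophages, with overlapping values.

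In the branch through calcineurin, calmodulin kinases and NFAT, 2 of 25 genes had higher and 4 lower values with an unadjusted p below 0.05. The shares over all genes were 6.54% and 6.28%. Of these 25, DESeq2 called 1 higher and 1 lower, against 2.37% and 1.51% of all genes. Mef2c, a calcium-responsive transcription factor gene, was at 8.27, 10.6 and 7.30 CPM in the Cre libraries against 5.46, 4.77 and 5.10 CPM in the controls (adjusted p 0.146, edgeR). Egr2, a target of NFAT, was at 200, 178 and 241 CPM in the Cre libraries against 266, 268 and 265 CPM in the controls (adjusted p 0.204, edgeR).

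The tested genes beside Plcb4 on chromosome 2 did not share its rise. Within 2 Mb on either side the annotation had 29 other genes. Those that failed the filter had at most 11 counts in any library, and 10 had none, so their change was not tested. The filter was passed by 5, of which edgeR called 0 after adjustment. The unadjusted p was below 0.05 for 4 of these 5, 2 with higher and 2 with lower values, against 6.54% and 6.28% of all tested genes, and these 4 differed by at most 0.48 on the log2 scale. Upstream, Plcb1 ends 184 kb before Plcb4 and had lower values as given above, and Tmx4, a thioredoxin-related membrane protein gene, was at 48.1 ± 0.961 CPM in Cre and 55.0 ± 2.90 CPM in control macrophages.

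Downstream, the nearest protein-coding genes, Lamp5 at 37.6 kb and Pak7 at 66.5 kb, had no count in any library. Mkks, a chaperonin-like gene 859 kb away, was at 22.6 ± 1.31 CPM in Cre macrophages and 19.9 ± 0.730 CPM in controls, with a log2 fold change of 0.18 ± 0.07 (SE). Slx4ip, 877 kb away, had 0.28 ± 0.11 (SE), and the Notch ligand gene Jag1, 1067 kb away, had -0.14 ± 0.10 (SE). Inside the Plcb4 span, the annotated noncoding genes Gm14209, Gm14211 and Gm14210 had at most 3 counts in any Cre library and none in the controls.

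**Figure D4:**
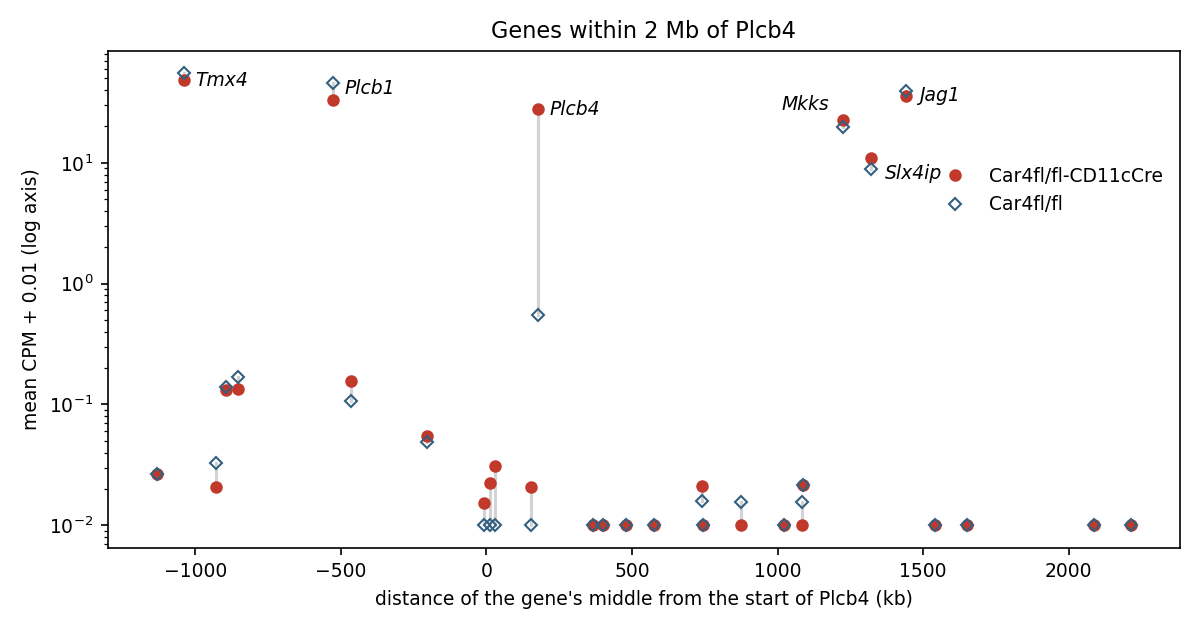
Mean CPM plus 0.01 on a log axis for the 30 genes within 2 Mb of Plcb4, itself included, placed by the distance of each gene's middle from the start of Plcb4 (red circles, Car4fl/fl-CD11cCre; open blue diamonds, Car4fl/fl; 3 libraries each). Plcb4 is at 27.9 CPM in Cre and 0.542 CPM in control libraries, while in the other labelled genes the group means lie within 1.39-fold of each other.

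Over the 15147 tested genes, Plcb4 had the highest ratio of the lowest Cre value to the highest control value, 49.6, with control values under 3 counts set to that floor. Saa3, an acute-phase gene, was next at 20.3, and 8 genes reached a ratio of 5. Of the 72 genes with a ratio of at least 2, only Plcb4 and Nwd1 had a highest Cre value within 1.2 times the lowest Cre value. Nwd1 was scarce, with 15, 16 and 14 counts in the Cre libraries and 3, 0 and 3 in the controls. In the median gene of these 72 the highest Cre library was 4.38 times the lowest. These counts describe the libraries from which Plcb4 was picked.

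Profiles were compared by Euclidean distance over the 6 libraries of log2(CPM + 0.05) less the control mean, leaving out predicted genes and pseudogenes. The genes nearest to Plcb4 were Arg1, H2-M2, Saa3, Awat1 and Pla2g2d, at distances of 3.46 to 3.85. Unlike Plcb4 each of them was lowest in Cre library 1. The arginase gene Arg1 was at 8.16, 72.2 and 192 CPM in Cre libraries 1, 2 and 3 and at 0.481 to 1.601 CPM in the controls. H2-M2, a nonclassical MHC class I gene, was at 2.28, 27.7 and 50.4 CPM in the Cre libraries and 0.0880 to 0.299 CPM in the controls. The highest Cre library exceeded the lowest 6.43-fold to 23.5-fold in these 5 genes, and 1.07-fold in Plcb4. The 5 genes lie on chromosomes 10, 17, 7, X and 4. Each had an adjusted p of 0.146 in edgeR. In DESeq2 the adjusted p ran from 5.97e-07 (H2-M2) to 0.000522 (Pla2g2d). The genes were picked by these same values, so neither tool gives a separate test of them.

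**Figure D5:**
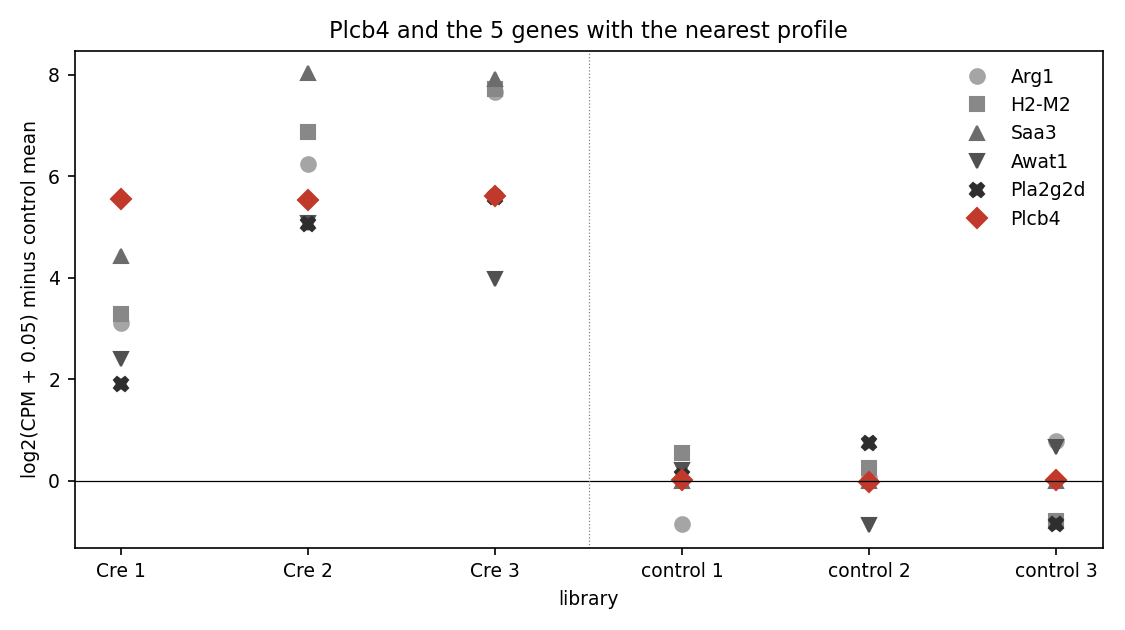
Difference of log2(CPM + 0.05) from each gene's control mean in the 3 Cre libraries (left) and 3 control libraries (right) for Plcb4 (red diamonds) and the 5 genes of nearest profile (grey symbols). Predicted genes and pseudogenes were left out of the choice. Plcb4 lies between 5.52 and 5.61 in the Cre libraries, while the other 5 genes are lowest in Cre library 1.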

How the data were processed

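The authors deposited raw counts for each gene as whole numbers, 1 column per library. Per the submitters' processing notes the tools included cutadapt 2.5, STAR 2.6.1, featureCounts 1.6.4, StringTie 2.0, edgeR 3.26.5 and DESeq2 1.22.1, with the build GRCm38; their roles, the annotation release and the strand setting were not stated there. Columns were assigned through the library names in the labels.

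The test was edgeR 4.0.16 under R 4.3.3 (filterByExpr, minimum count 10, TMM, estimateDisp, glmQLFit, glmQLFTest, two-sided, group as the only term, Benjamini-Hochberg over 15147 genes). Standard errors are the absolute log2 fold change over the square root of F, and intervals use the same degrees of freedom. RPKM used merged exon lengths of GENCODE M21 (GRCm38). Per the labels' protocols, RNA came from the RNeasy Plus Micro kit with polyadenylated RNA capture. Alternatives were DESeq2 1.42.0, limma-voom (limma 3.58.1), other scalings, filters, thresholds, a replicate block and leaving out each library. The code was tested on simulated data. Members and lists were chosen with earlier results of these data known. Genes were named if they were members, other phospholipase C genes, the 2 of smallest p or the most abundant of a list, neighbours within 1 Mb, or among the 5 nearest profiles, plus Car4; markers, Tmx4, Jag1, Nwd1, the nearest silent genes and those inside Plcb4 were added after their values were seen. A listed gene with no row is not analysed here. A gene that the naming rule picks is not reported here. Libraries of a group differed by more than sampling noise (chi-square over degrees of freedom 19.6 to 51.4). P-values weigh the group difference against the variation between the 3 libraries per group, with dispersions moderated over all tested genes. Floors cover counting error only. Figures were drawn with matplotlib 3.10.9.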

Additional observations from a re-analysis of the deposited data

How the results depend on the processing

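Of the 9 members other than Plcb4, 0 were called in edgeR, and 3 by DESeq2, 2 without a filter on low counts (Plcb1 and Plcd1) and 0 to 1 when a library was left out: Plcb1 without Cre replicate 1 and Plcd1 without control replicate 3. Over all genes edgeR called 2, against 564 by DESeq2, 523 without the filter, 1 with robust dispersions, an alternative added after seeing the data, and 1 to 286 with a library left out, the most without Cre replicate 1 and the fewest without control replicate 2. With the replicate number as a block edgeR called 10 genes and 0 of these members. Deviations of same-numbered libraries from their group means correlated at -0.04, -0.19 and 0.06, and those of differently numbered ones at -0.22 to 0.26. With 3 libraries per group this cannot show whether the numbers pair the mice, which the labels do not state. Plcb4 kept a log2 fold change between 5.65 and 5.70 over 16 alternatives. Leaving out a library changed the sign of values near 0: Plcd3 ranged from -0.23 to 0.37, Plcg1 from -0.091 to 0.10, Plcl2 from -0.033 to 0.11 and Plcxd2 from -0.10 to 0.092, and the cause was not tested. Car4 lost its call with robust dispersions (adjusted p 0.0719 in edgeR) and without control replicate 2 (adjusted p 0.0549 in edgeR). At 9 to 23 counts, changes of Plcd3 and Plce1 under 2-fold were not resolved.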

Other observations

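Control library 3 lay nearest to the Cre libraries in several genes of the pathway that were lower in Cre macrophages, a pattern noticed after their values were seen. Besides Plcd1 and Plcl1 this held for Inpp1, Ryr1, Rasgrp4 and Gnb5, a G protein beta subunit gene at 4.68, 4.46 and 4.51 CPM in the Cre libraries and 6.49, 6.62 and 4.95 CPM in the controls. It did not hold for Plcb1, whose lowest control was library 2, nor for Plcb4, whose controls lay within 0.532 to 0.548 CPM. No cause of this pattern was tested.

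Diacylglycerol kinases remove diacylglycerol by phosphorylation. They included 3 genes, Dgkg, Dgke and Dgkz, whose Cre values all lay below the controls. In 1 gene, Dgkh, the Cre values all lay above them. Of all tested genes, 9.22% lay below and 8.63% above in this way. Dgkg was at 24.0, 17.7 and 23.3 CPM in the Cre libraries and 28.4, 30.8 and 27.2 CPM in the controls, and Dgke at 55.1, 39.5 and 56.2 CPM in the Cre libraries against 58.0, 66.8 and 69.8 CPM in the controls. Dgkz averaged 158 ± 9.79 CPM in Cre macrophages and 174 ± 7.08 CPM in controls, and Dgkh 3.27 ± 0.269 CPM in Cre macrophages and 2.58 ± 0.292 CPM in controls (SD, n = 3 each). The adjusted p of these 4 genes lay between 0.209 and 0.407 (edgeR), so none passed in edgeR. DESeq2 gave an adjusted p of 0.0402 for Dgkg, 0.120 for Dgke and 0.496 for Dgkh. The groups overlapped for Dgka, Dgkd and Dgkq.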
